A study of Caenorhabditis elegans with 20 samples.

Results

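Folate and one-carbon enzymes were followed as 7 genes, taken by symbol from the 39341 genes of the deposited tables: mel-32, gcst-1, dao-3, atic-1, dhfr-1, tyms-1 and folt-1. Messenger RNA was measured in whole Caenorhabditis elegans labelled as L4 stage, in 20 libraries from a pair of experiments with 2 libraries in each of 10 groups. The first experiment held wild type (strain VL749) and Δnhr-114 animals (VL1127, allele gk849, a deletion in a nuclear hormone receptor gene), kept on Escherichia coli OP50 for 48 h with or without 25 mM methionine. The second held wild type, Δmetr-1 (VL1102, allele ok521) and metr-1(ww52);Δnhr-10 animals (VL1201, nhr-10 allele tm4695), all given 20 nM vitamin B12 for 48 h and fed E. coli HT115 with either the empty RNAi vector or an nhr-114 RNAi construct. Every strain, wild type included, carried the integrated reporter wwIs24[Pacdh-1::GFP;unc-119(+)]. Animals of both experiments came from maintenance with 0.64 nM vitamin B12 and were synchronized by an 18 h L1 arrest. All sample titles of the first experiment name soy, and the paper states that soy peptone replaced bactopeptone in its growth medium. For the 48 h of the first experiment, the sample descriptions give no vitamin B12 dose. The gene metr-1 encodes methionine synthase, so the methionine/S-adenosylmethionine (Met/SAM) cycle is broken in both metr-1 strains. The ww52 allele came from a chemical mutagenesis screen, and that strain differs from wild type in metr-1 and in nhr-10, whose effects cannot be told apart.

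Folate, as tetrahydrofolate, carries single carbon units between pathways. Most of these units come from serine through serine hydroxymethyltransferase, and some come from glycine through the mitochondrial glycine cleavage system. The loaded folates are then used by methionine synthase, by thymidylate synthase for DNA, and by the formyl transfer steps of purine synthesis. The 7 genes span those roles. Serine hydroxymethyltransferase is encoded by mel-32, and the aminomethyltransferase of glycine cleavage by gcst-1. The product of dao-3 is of the methylenetetrahydrofolate dehydrogenase and cyclohydrolase family, and atic-1 encodes the bifunctional enzyme of the last steps to inosine monophosphate. Dihydrofolate reductase is encoded by dhfr-1, thymidylate synthase by tyms-1, and a folate transporter of the reduced folate carrier family by folt-1.

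All 7 genes are protein coding, and in the WBcel235 assembly mel-32 (WBGene00003214) is on the reverse strand of chromosome III from 6440145 to 6443000. The gene dao-3 (WBGene00000929) is on the reverse strand of chromosome X from 8084210 to 8086550, and atic-1 (WBGene00016957) on the forward strand of chromosome IV from 7882026 to 7900257. The genes dhfr-1 (WBGene00007974) and tyms-1 (WBGene00022455) are on the forward strand of chromosome I, from 8736213 to 8737038 and from 5138250 to 5139382. The genes gcst-1 (WBGene00017765) and folt-1 (WBGene00007388) are on the forward strand of chromosome V, from 5712928 to 5714737 and from 11141479 to 11143121. On the same strand, gls-1 lies 33 bases after dhfr-1 and K07E3.4 lies 191 bases after dao-3, within the 1000 bases by which the authors' counter extended a gene. An opposite-strand gene, C06H2.7, overlaps the end of folt-1 and reached 17.8 CPM, above folt-1 itself, so values of folt-1 are uncertain. Also on the opposite strand, C05D11.1 lies 180 bases after mel-32 and reached 129 and 196 CPM in the first and second experiments. Opposite atic-1, arp-11 and ilys-4 reached 39.1 and 38.5 CPM. The same-strand gls-1 reached 55.6 and 90.6 CPM, above dhfr-1. Neighbours of tyms-1 and gcst-1 reached at most 2.16 and 5.10 CPM. Whether reads of a neighbour were counted for any of the 7 genes was not tested.

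Values are in CPM: the read count of a gene after each library was scaled to a sum of 1000000, with gene length left out. The libraries held 1389117 to 24482380 reads (median 12015694), so that 3 reads came to 0.123 to 2.16 CPM. The shallowest were the second library of wild type with methionine and, on vector, the first of metr-1(ww52);Δnhr-10. Groups were compared with limma on log2(CPM + 1), over all genes that reached 5 CPM in 2 libraries of an experiment. A gene was called when its Benjamini-Hochberg adjusted p was under 0.01 and its fold over 1.5. All 7 genes entered the test in both experiments, folt-1 only through the libraries in which it was higher. The mRNA of nhr-114 was 0.408 to 0.703 CPM in the Δnhr-114 libraries. In the groups labelled nhr-114 RNAi it was 193 to 391 CPM in replicate 1, beside 3.16 to 46.3 CPM on vector. Replicate 2 held 2.30 CPM in wild type (8.98 and 3.16 CPM on vector) and 7.94 CPM in Δmetr-1 (29.4 and 46.3 CPM on vector). In metr-1(ww52);Δnhr-10 it held 3.60 CPM (37.4 and 33.7 CPM on vector). Thus replicate 2 lay below both vector libraries of its strain, while replicate 1 went against the label. For replicate 1 the direction of every RNAi comparison rests on the labels. Reads of metr-1 were present in both metr-1 strains (30.3 to 555 CPM), and reads from the 3′ end do not check those alleles. Summed markers of oocytes differed several-fold between replicates of some groups, for example 439.6 and 5563 CPM in untreated Δnhr-114. In Δmetr-1 on vector, the 11 oocyte markers summed to 5688 and 738 CPM in replicates 1 and 2. The 6 yolk markers there summed to 3264 and 64.0 CPM, and 7 cuticle markers to 1217 and 9589 CPM. Whether these replicates differed in stage was not tested.

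In both metr-1 mutants mel-32 fell between vector and the libraries labelled nhr-114 RNAi, and in Δmetr-1 tyms-1 fell as well. No other gene of the 7 was called in any of the 13 comparisons of groups or the 3 interactions. For Δmetr-1, RNAi against vector, 2 of 7 genes were called lower and 0 higher, beside 11% of 11543 genes called lower and 1.52% called higher (12.5% in either direction). For metr-1(ww52);Δnhr-10 the count was 1 lower and 0 higher, beside 3.38% and 1.39% (4.76% in either direction). The median log2 change of the 7 genes was -0.11 in Δmetr-1, and that of all genes tested was also -0.11. For metr-1(ww52);Δnhr-10 the median was -0.62, beside -0.09 over all genes. Of the 7 changes, 5 were negative and 2 positive in each mutant, folt-1 being positive in both.

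**Figure D1:**
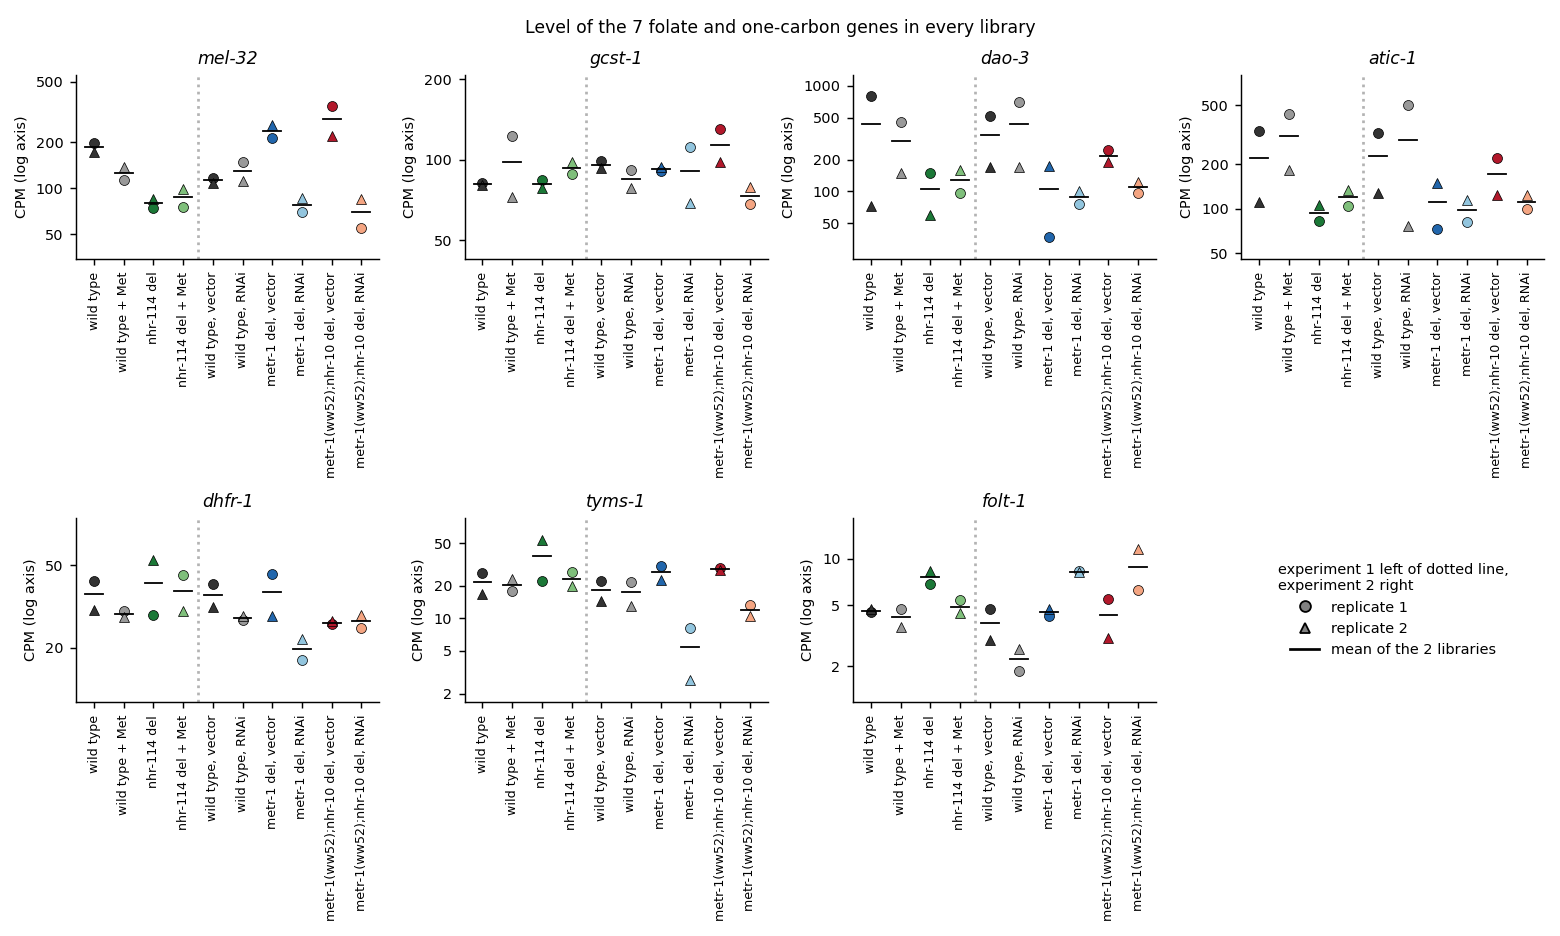
Level of each of the 7 genes in CPM (log axis) in all 20 libraries, with circles for replicate 1, triangles for replicate 2 and a bar at the mean of each group; the dotted line parts the experiments. The gene mel-32 was 55.0 to 86.7 CPM in the 4 metr-1 mutant libraries labelled RNAi and 108 to 348 CPM in the other 8 of the second experiment, while dao-3 and atic-1 differed widely between replicates.

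The gene mel-32 was highest in the metr-1 mutants on vector and lowest in the same mutants with the RNAi label. Wild type on vector held 117 and 108 CPM. Δmetr-1 on vector held 213 and 260.4 CPM, and metr-1(ww52);Δnhr-10 on vector held 348 and 221 CPM. All 4 mutant libraries lay above both wild type libraries, and the mutants overlapped each other. The log2 difference from wild type was 1.06 (SE 0.30, 95% interval 0.39 to 1.73) for Δmetr-1 and 1.29 (SE 0.30, 0.62 to 1.97) for metr-1(ww52);Δnhr-10. Neither was called (limma adjusted p 0.345 and 0.127). Of all genes, 0.113% and 0.243% were called higher in these comparisons (0.113% and 0.26% in either direction).

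With the RNAi label, wild type held 148 and 111 CPM of mel-32. Δmetr-1 then held 69.4 and 86.7 CPM, and metr-1(ww52);Δnhr-10 held 55.0 and 84.7 CPM. Wild type overlapped its own vector libraries, while each mutant lay below both libraries of its vector group. The log2 change was -1.59 for Δmetr-1 (SE 0.30, 95% interval -2.26 to -0.92, limma adjusted p 0.00434) and -2.01 for metr-1(ww52);Δnhr-10 (SE 0.30, -2.68 to -1.33, adjusted p 0.00365), and both were called. Wild type changed by 0.19 (SE 0.30, -0.49 to 0.86, adjusted p 0.998), which was not called. The response of Δmetr-1 minus that of wild type was -1.78 (SE 0.43, -2.73 to -0.82, adjusted p 0.0386), and that of metr-1(ww52);Δnhr-10 minus wild type was -2.19 (SE 0.43, -3.15 to -1.24, adjusted p 0.0434). Neither interaction was called, beside 0.0347% and 0.0173% of all genes that were. Among libraries labelled RNAi, those of both mutants lay below both of wild type, with log2 differences of -0.72 (adjusted p 0.0972) and -0.90 (adjusted p 0.0532) that were not called.

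In order of mean level in the second experiment, mel-32 went on vector from metr-1(ww52);Δnhr-10 (284 CPM) and Δmetr-1 (237 CPM) through wild type labelled RNAi (129.5 CPM) and on vector (113 CPM) to the RNAi groups of Δmetr-1 (78.1 CPM) and metr-1(ww52);Δnhr-10 (69.9 CPM). Within each of these 3 levels the neighbouring groups overlapped. Between the levels no libraries overlapped.

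The call of mel-32 in Δmetr-1 was kept in 4 of 9 alternative fits, and the adjusted p was 0.0107 under median-of-ratios scaling, 0.0137 in edgeR and 0.0552 with only the 4 compared libraries. For metr-1(ww52);Δnhr-10 it was kept in 7 of 9. Leaving out any 1 of the 4 compared libraries ended either call: mel-32 then changed by -1.75 to -1.43 (adjusted p 0.0125 to 0.0384) in Δmetr-1 and by -2.33 to -1.68 (adjusted p 0.0198 to 0.0372) in the other strain. Without all RNAi replicate 1 libraries, in which nhr-114 was high, mel-32 changed by -1.43 (adjusted p 0.0626) and -1.70 (adjusted p 0.0748). In each fit that leaves 1 library in a group, that library is assumed to vary like those of the other groups.

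In the first experiment untreated wild type held 197 and 173 CPM of mel-32, and wild type with methionine held 113.6 and 137 CPM. Untreated Δnhr-114 held 74.1 and 84.7 CPM, and Δnhr-114 with methionine held 75.6 and 99.3 CPM. Untreated wild type lay above every other library, and the Δnhr-114 groups overlapped each other. Between untreated Δnhr-114 and wild type the log2 difference was -1.21 (SE 0.24, 95% interval -1.79 to -0.63, limma unadjusted p 0.00174, adjusted p 0.268). With methionine it was -0.52 (-1.10 to 0.06, adjusted p 1.00), and methionine in wild type gave -0.56 (-1.14 to 0.02, adjusted p 1.00). The methionine effect in Δnhr-114 minus that in wild type was 0.69 (-0.13 to 1.51, adjusted p 1.00). None was called.

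Neighbouring enzymes of the methyl branch rose and fell in the same comparisons. A list of 12 other folate cycle genes held mthf-1 (methylenetetrahydrofolate reductase, which makes methyl-folate), metr-1 and mtrr-1 (methionine synthase reductase). These 3 of the 12 were called higher, and 0 lower, on vector in each metr-1 mutant against wild type, beside 0.113% of all genes called higher for Δmetr-1 and 0.243% for metr-1(ww52);Δnhr-10. Between vector and RNAi, 4 of 12 were called lower in Δmetr-1, beside 11% of all genes, and 3 of 12 in metr-1(ww52);Δnhr-10, beside 3.38%, with 0 higher. The list's median changes were then -0.19 and -0.36, beside -0.11 and -0.09 over all genes. The list was chosen knowing that Met/SAM cycle genes had moved in these data, so its counts are no independent evidence.

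Wild type on vector held 88.7 and 117 CPM of mthf-1. Δmetr-1 on vector held 441 and 527 CPM, and metr-1(ww52);Δnhr-10 held 837 and 716 CPM. With the RNAi label wild type held 107 and 121 CPM. Δmetr-1 then held 101 and 115.3 CPM, which overlapped wild type, and metr-1(ww52);Δnhr-10 held 172 and 168 CPM, above it. The log2 changes of mthf-1 from vector were -2.15 (limma adjusted p 0.000591) and -2.18 (adjusted p 0.00162). The fourth gene called lower in Δmetr-1 was folt-2, a folate transporter gene by name, with 160.2 and 121 CPM on vector against 14.8 and 16.6 CPM with the RNAi label (log2 change -3.07, adjusted p 0.00202). The other 8 listed genes, among them gldc-1, gcsh-1, gcsh-2 and dld-1 of glycine cleavage, were called in no comparison.

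**Figure D2:**
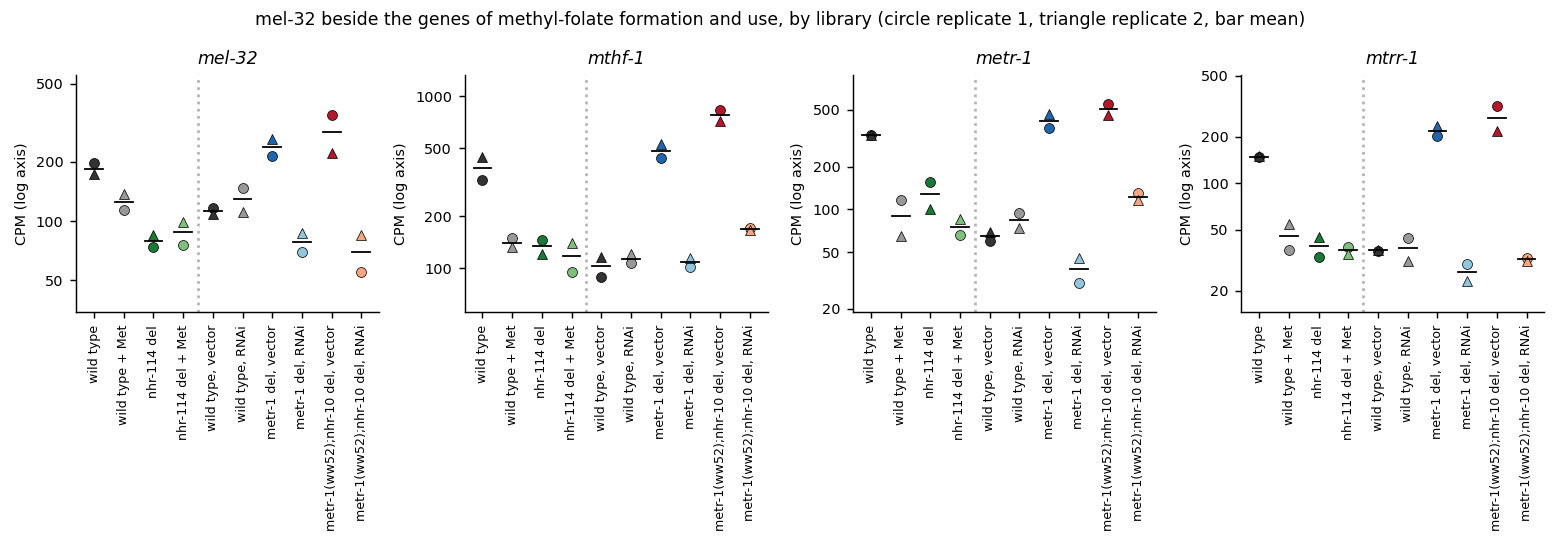
CPM (log axis) of mel-32, mthf-1, metr-1 and mtrr-1 in all 20 libraries, circles for replicate 1, triangles for replicate 2 and a bar at the group mean. In all 4 panels the metr-1 mutants on vector are the highest groups of the second experiment, and untreated wild type is the highest group of the first.

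The summed level of the body wall muscle markers (unc-54, myo-3, unc-15, unc-27 and mup-2) moved with these groups. The part of any single marker in that sum was not examined. The 5 body wall muscle markers summed to 2740 to 3454 CPM in wild type on vector, 5678 to 13336 CPM in the metr-1 mutants on vector, and 2651 to 4454 CPM in the mutants with the RNAi label. In the first experiment they summed to 15277 to 19636 CPM in untreated wild type and 5930 to 8114 CPM in the other groups. The 6 intestine markers summed to 4606 to 7332 CPM in the second experiment. Between vector and the RNAi label they overlapped in Δmetr-1 (4728 to 6043 and 5215 to 5377 CPM) and were lower without overlap in metr-1(ww52);Δnhr-10 (5721 to 6025 and 4606 to 5068 CPM). No marker was at 0 in any group. In whole animals, fewer cells of a type and less RNA per cell cannot be told apart, and the share of tissue make-up in the changes of mel-32 was not tested.

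The gene gcst-1 varied least. Its lowest and highest libraries were 72.7 and 123 CPM in the first experiment and 68.2 and 130.2 CPM in the second, and replicates of a group differed by 1.01-fold to 1.69-fold. On vector, wild type held 98.6 and 93.1 CPM, Δmetr-1 90.9 and 94.3 CPM, and metr-1(ww52);Δnhr-10 130.2 and 97.7 CPM. With the RNAi label, wild type held 91.4 and 78.4 CPM, Δmetr-1 112 and 69.0 CPM, and metr-1(ww52);Δnhr-10 68.2 and 78.8 CPM. Wild type and metr-1(ww52);Δnhr-10 lay below their vector groups without overlap, and Δmetr-1 overlapped. The log2 changes of gcst-1 were -0.18 in wild type (95% interval -0.78 to 0.43, limma adjusted p 0.998) and -0.62 in metr-1(ww52);Δnhr-10 (-1.22 to -0.01, adjusted p 0.158). Over the 13 comparisons of groups the intervals of gcst-1 reached from -1.22 to 0.91 on the log2 scale.

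The genes dao-3 and atic-1 had the widest spread between replicates. In untreated wild type dao-3 was 800.1 and 72.7 CPM, an 11.01-fold difference, and atic-1 was 333 and 110.5 CPM. In wild type with methionine dao-3 was 453 and 149.7 CPM, and atic-1 was 436 and 181 CPM. The same replicate was the higher for both genes in each group. Wild type on vector held 513 and 172 CPM of dao-3 and 327 and 128 CPM of atic-1. Wild type labelled RNAi held 699 and 169.8 CPM of dao-3 and 505 and 76.4 CPM of atic-1. In 9 of 10 groups the library with more dao-3 also had more atic-1. The exception was untreated Δnhr-114, where dao-3 was 149 and 60.0 CPM and atic-1 was 82.7 and 105 CPM.

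The mutants held no library as high as the highest of wild type. In Δnhr-114 with methionine dao-3 was 96.2 and 158 CPM and atic-1 was 105 and 134 CPM. For dao-3, Δmetr-1 held 36.7 and 175 CPM on vector and 76.9 and 101 CPM with the RNAi label, and metr-1(ww52);Δnhr-10 held 249 and 189 CPM and then 96.2 and 122 CPM. The 4 highest libraries of dao-3 were all wild type, and the other 4 wild type libraries lay among the mutants. For atic-1, Δmetr-1 held 73.2 and 149.5 CPM on vector and 81.5 and 115.2 CPM with the RNAi label, and metr-1(ww52);Δnhr-10 held 219.9 and 124.5 CPM and then 100.1 and 123 CPM. In that strain the RNAi libraries lay below the vector libraries for both genes, by -0.99 for dao-3 (limma adjusted p 0.474) and -0.57 for atic-1 (adjusted p 0.682).

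With this spread the standard error of a log2 difference was 1.15 and 0.87 for dao-3 in the first and second experiments, and 0.60 and 0.84 for atic-1. This error is pooled over all groups of an experiment, so it need not match the spread of a single comparison. In the second experiment, dao-3 replicates differed 4.11-fold in wild type labelled RNAi and 1.27-fold in metr-1(ww52);Δnhr-10 labelled RNAi. Between Δmetr-1 and wild type, dao-3 differed by -1.95 with the RNAi label (95% interval -3.96 to 0.05, limma adjusted p 0.123), without overlap, and by -1.87 on vector (-3.88 to 0.14, adjusted p 0.638). Between Δnhr-114 and wild type, atic-1 differed by -1.24 with methionine (-2.69 to 0.20, adjusted p 1.00) and -1.03 untreated (-2.47 to 0.41, adjusted p 0.991), both without overlap. None of the 16 tests of either gene had an unadjusted p under 0.05.

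Over the 20 libraries, with log2 levels centred on the mean of each experiment, dao-3 and atic-1 had r = 0.88 (Spearman 0.83), and 0.86 and 0.90 within the first and second experiments. Without the 2 libraries farthest from the median of dao-3, r was 0.83. The points share their libraries and depth, so this is a description. By the same measure the genes most like dao-3 among 10811 genes were F38B6.4 (r = 0.94), paic-1 (0.90) and pfas-1 (0.89), and those most like atic-1 were paic-1 (0.96), pfas-1 (0.93) and nuc-1 (0.88). The genes F38B6.4, paic-1 and pfas-1 stand in the list of purine synthesis genes, and nuc-1 encodes a nuclease.

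Of the 8 purine synthesis genes listed, 5 (ppat-1, F38B6.4, pfas-1, paic-1 and adsl-1) had the same replicate higher as atic-1 in 8 or 9 of 10 groups, and the other 3 (adss-1, gmps-1 and R151.2) in 4 to 6. For example, paic-1 was 90.8 and 20.2 CPM in untreated wild type and 127 and 22.5 CPM in wild type labelled RNAi. Of the list, R151.2 alone was called by limma: R151.2 (prps-1 in RefSeq, a phosphoribosyl pyrophosphate synthetase by that name) was lower in both mutants than in wild type among libraries labelled RNAi, by -1.65 and -2.15 (limma adjusted p 0.000484 and 0.000448). In these comparisons 10% and 7.1% of all genes were called lower, and the medians of the purine list were -1.17 and -1.34, beside -0.12 and -0.02 over all genes. Of the 3 serine supply genes listed, 0 were called by limma in any comparison.

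**Figure D3:**
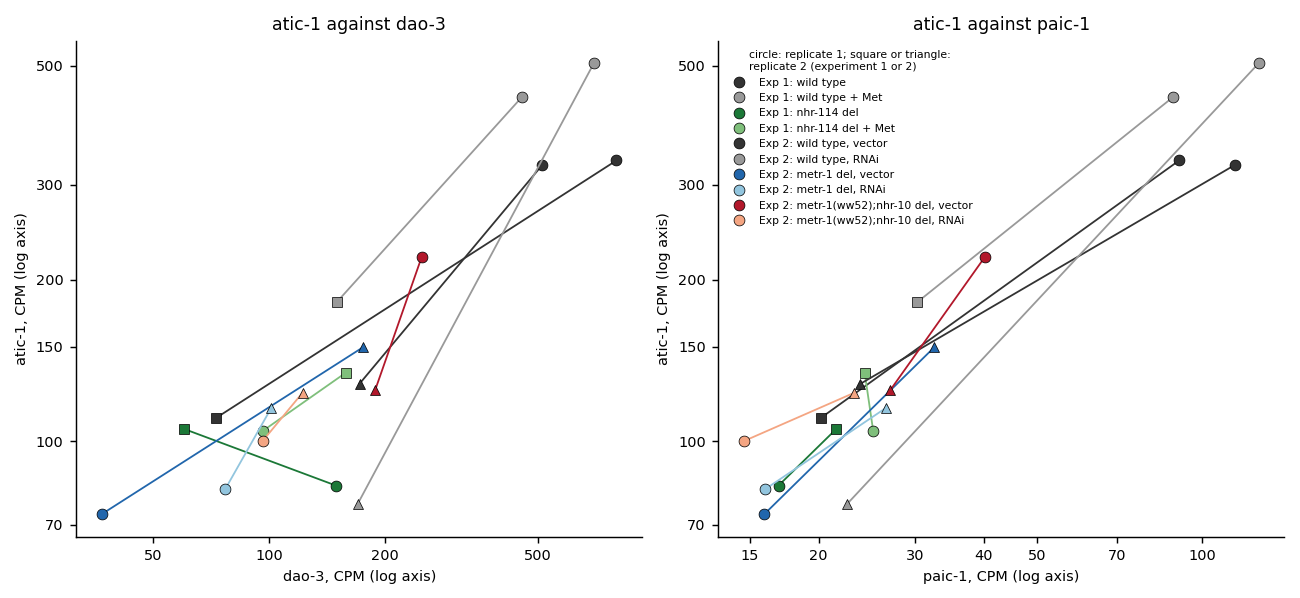
CPM of atic-1 against dao-3 (left) and against paic-1 (right), both axes logarithmic; each point is a library, and a line joins the 2 libraries of a group. Replicate 1 libraries of the 4 wild type groups lie at the upper right, with 453 to 800.1 CPM of dao-3 and 327 to 505 CPM of atic-1.

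Thymidylate synthase mRNA was lowest in Δmetr-1 with the RNAi label. There tyms-1 was 8.13 and 2.67 CPM, from 90 and 37 reads. The same strain held 30.7 and 22.9 CPM on vector, and wild type held 22.2 and 14.4 CPM on vector and 21.8 and 13.1 CPM with the RNAi label. Both Δmetr-1 libraries labelled RNAi lay below all others of the study. The log2 change of tyms-1 from vector was -2.25 (SE 0.44, 95% interval -3.23 to -1.27, limma adjusted p 0.00504), and it was called. Against wild type labelled RNAi the difference was -1.63 (SE 0.44, -2.61 to -0.65, adjusted p 0.0190), which was not called.

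The call of tyms-1 was kept in 7 of 9 alternative fits. It was lost with only the 4 compared libraries (adjusted p 0.0744) and without all RNAi replicate 1 libraries (-2.91, adjusted p 0.0392). Of single libraries, leaving out replicate 1 (-2.91, adjusted p 0.0101) or replicate 2 (-1.59, adjusted p 0.0437) of Δmetr-1 labelled RNAi, replicate 1 of Δmetr-1 on vector (-2.05, adjusted p 0.0268), or either vector library of metr-1(ww52);Δnhr-10 (adjusted p 0.0107 each) ended the call of tyms-1.

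On vector metr-1(ww52);Δnhr-10 held 29.1 and 28.4 CPM of tyms-1, and with the RNAi label 13.4 and 10.6 CPM. The groups did not overlap, and the change of -1.20 (SE 0.44, 95% interval -2.18 to -0.22, limma adjusted p 0.0972) was not called. The response minus that of wild type was -2.18 for Δmetr-1 (adjusted p 0.0626) and -1.13 for metr-1(ww52);Δnhr-10 (adjusted p 0.358). Among mutant libraries labelled RNAi, tyms-1 was higher in metr-1(ww52);Δnhr-10 than in Δmetr-1 by 1.16 (0.18 to 2.14, unadjusted p 0.0249, adjusted p 0.998).

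The gene dhfr-1, whose enzyme restores the folate that thymidylate synthase oxidizes, moved less. Δmetr-1 held 45.6 and 28.5 CPM on vector and 17.5 and 22.2 CPM with the RNAi label. These groups did not overlap, and the log2 change was -0.84 (SE 0.29, 95% interval -1.49 to -0.19, limma adjusted p 0.0565), which was not called. On vector metr-1(ww52);Δnhr-10 held 25.96 and 27.02 CPM and with the RNAi label 25.1 and 29.0 CPM. Wild type held 40.5 and 31.6 CPM on vector and 27.4 and 28.4 CPM with the RNAi label. The lowest libraries of dhfr-1 in the study were those of Δmetr-1 labelled RNAi.

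In the first experiment the highest library of both genes was replicate 2 of untreated Δnhr-114, with 53.0 CPM of dhfr-1 and 53.6 CPM of tyms-1, beside 28.9 and 22.1 CPM in replicate 1. The other 6 libraries held 28.1 to 44.9 CPM of dhfr-1 and 17.0 to 27.02 CPM of tyms-1. That library also had the most of the oocyte markers (5563 CPM) and germline markers (1842 CPM) in its experiment, and their part in its values was not tested.

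Genes of DNA precursors and replication were low in the same libraries. Of 12 such genes listed (rnr-1 and rnr-2 of ribonucleotide reductase, dut-1, thk-1, pcn-1, cdc-6 and mcm-2 to mcm-7), 9 were called lower and 0 higher in Δmetr-1, RNAi against vector, beside 11% and 1.52% of all genes, and all 12 had an unadjusted p under 0.05, beside 42.2%. The median log2 change was -2.40 beside -0.11 over all genes. For metr-1(ww52);Δnhr-10, limma called 0 of the 12, beside 4.76% of all genes, 8 had an unadjusted p under 0.05, beside 30.6%, and the median was -1.13 beside -0.09. Their summed level was 232 to 288 CPM in Δmetr-1 labelled RNAi and 348 to 512 CPM in metr-1(ww52);Δnhr-10 labelled RNAi, against 872 to 2215 CPM in the other 8 libraries. In Δmetr-1 on vector that sum was 2215 and 894 CPM in replicates 1 and 2. Over the 20 libraries, centred by experiment, the mean log2 level of the list had r = 0.85 (Spearman 0.83) with tyms-1 and 0.79 (Spearman 0.78) with dhfr-1. The genes most like tyms-1 were Y69A2AR.28 (r = 0.91), dscc-1 (0.91) and set-1 (0.90), and those most like dhfr-1 were D1046.2, lelo-1 and impt-1 (0.94 each).

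**Figure D4:**
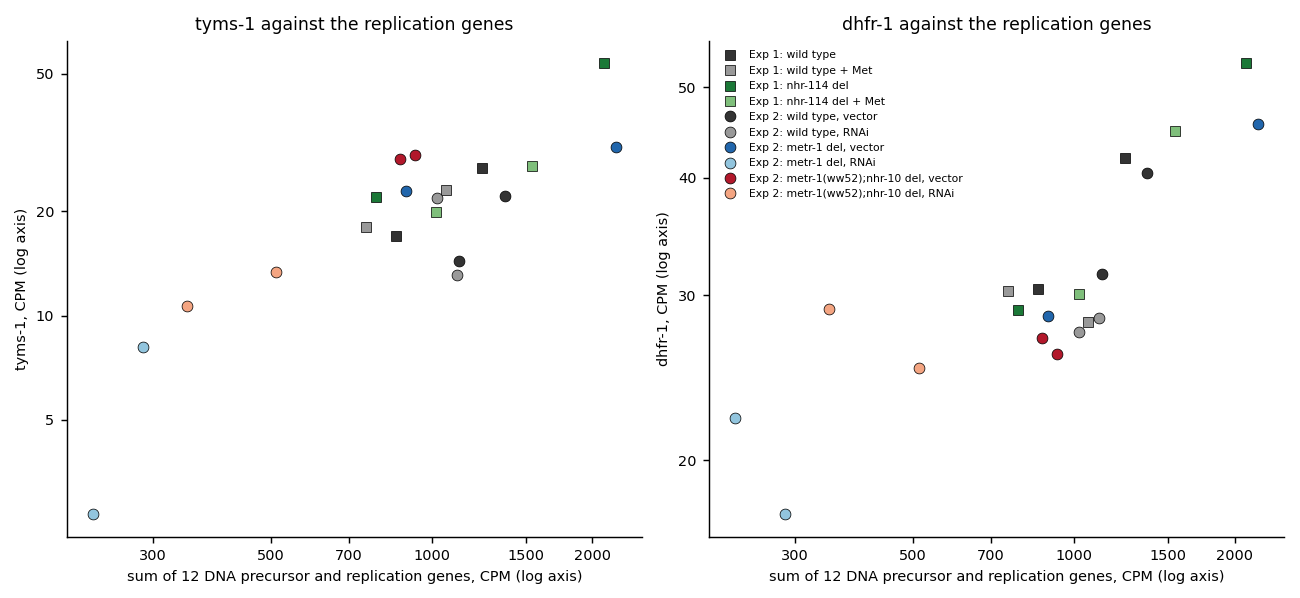
CPM of tyms-1 (left) and dhfr-1 (right) against the summed CPM of 12 DNA precursor and replication genes in each of 20 libraries, all axes logarithmic, squares for the first and circles for the second experiment. The 4 metr-1 mutant libraries labelled RNAi lie at the left, at 232 to 512 CPM of the summed genes and 2.67 to 13.4 CPM of tyms-1, where the other 8 of that experiment have 13.1 to 30.7 CPM of tyms-1.

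Germline markers were low in those 4 libraries too. The 10 germline markers summed to 311 to 337 CPM in Δmetr-1 labelled RNAi and 389 to 458 CPM in metr-1(ww52);Δnhr-10 labelled RNAi, against 834 to 2151 CPM in the other libraries of the experiment. The 8 sperm markers summed to 16.5 to 25.3 CPM in the 4 libraries and 83.6 to 179 CPM elsewhere, and 5 neuron markers to 849 to 981 CPM against 431 to 565 CPM. The 11 oocyte markers ranged from 467 to 2515 CPM in the 4 libraries and from 471 to 5688 CPM elsewhere. The 6 yolk markers summed to 3245 to 5518 CPM in Δmetr-1 labelled RNAi and to 345 and 3423 CPM for the RNAi libraries of metr-1(ww52);Δnhr-10, against 64.0 to 3264 CPM elsewhere. The part of these tissues in the fall of tyms-1 was not tested.

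The transporter gene folt-1 was low in CPM, and in the second experiment it was highest in the metr-1 mutants with the RNAi label. On vector, wild type held 4.68 and 2.94 CPM, Δmetr-1 4.26 and 4.74 CPM, and metr-1(ww52);Δnhr-10 5.51 and 3.06 CPM. With the RNAi label, wild type held 1.87 and 2.59 CPM, Δmetr-1 8.31 and 8.15 CPM, and metr-1(ww52);Δnhr-10 6.27 and 11.52 CPM. The 4 mutant libraries labelled RNAi (30 to 179 reads) lay above the other 8 (12 to 57 reads). Among libraries labelled RNAi, the log2 difference of folt-1 from wild type was 1.52 for Δmetr-1 (SE 0.38, 95% interval 0.69 to 2.36, limma adjusted p 0.0126) and 1.57 for metr-1(ww52);Δnhr-10 (SE 0.38, 0.74 to 2.41, adjusted p 0.0132). Neither was called, where 5.87% and 5.17% of genes were called higher. In Δmetr-1, folt-1 was called under median-of-ratios scaling (adjusted p 0.00999), in edgeR (0.00836) and in DESeq2 (0.00250), and in the other strain by DESeq2 (0.00282). The gene passed the filter on low values through these same mutant libraries labelled RNAi, so the calls are no independent support. The share of all genes called in those fits is not given here.

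From vector to the RNAi label folt-1 changed by 0.75 in Δmetr-1 (95% interval -0.09 to 1.58, limma adjusted p 0.154), by 0.89 in metr-1(ww52);Δnhr-10 (0.06 to 1.73, adjusted p 0.138) and by -0.56 in wild type (-1.39 to 0.27, adjusted p 0.998). The groups overlapped in none of the 3 strains, and none of these changes was called. The filter was passed through the mutant libraries labelled RNAi, so these comparisons are no independent support for a rise there. In the first experiment folt-1 was 4.49 and 4.73 CPM in untreated wild type and 6.85 and 8.35 CPM in untreated Δnhr-114. With methionine it was 4.74 and 3.60 CPM in wild type, the latter from 5 reads, and 5.37 and 4.41 CPM in Δnhr-114. Untreated Δnhr-114 lay above all other libraries of that experiment, by 0.61 over untreated wild type (-0.21 to 1.43, limma adjusted p 0.991). Only Δnhr-114 libraries reached 5 CPM of folt-1 in that experiment, so this is no independent support either. The genes most like folt-1 over the 20 libraries were dnj-20 (r = 0.92), hacd-1 (0.92) and T25B9.9 (0.91).

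Over the 20 libraries the genes most like mel-32 were pmp-5 (r = 0.92), a vitamin B12 transporter gene, cln-3.1 (0.92) and the lysozyme family gene lys-6 (0.91). For gcst-1 they were cox-6C (0.78), atp-4 (0.76) and ndua-2 (0.75), genes of the respiratory chain and ATP synthase by name. Between members, dao-3 with atic-1 (0.88), dhfr-1 with tyms-1 (0.63) and mel-32 with tyms-1 (0.51) had r over 0.5. Within the first and second experiments r was 0.85 and 0.58 for dhfr-1 with tyms-1, and -0.34 and 0.71 for mel-32 with tyms-1.

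Genes whose groups did not overlap were common in these small groups, so the members' counts are given beside the share of all genes. From vector to the RNAi label in Δmetr-1, 1 of the 7 was higher and 3 were lower without overlap, beside 28.6% and 36.7% of all genes. For metr-1(ww52);Δnhr-10 the counts were 1 and 5, beside 29.8% and 37.6%, and for wild type 0 and 3, beside 13.7% and 17.1%. Against wild type with the RNAi label, Δmetr-1 had 1 higher and 4 lower, beside 31.6% and 39.1%, and metr-1(ww52);Δnhr-10 had 1 and 2, beside 32.6% and 32.8%. The limma calls there were 0 of 7 in each, beside 15.9% and 12.3% of genes. An unadjusted p under 0.05 was reached by 3 and 2 of the 7, beside 43.2% and 38.1% of genes. In the mutant comparisons above, the gene higher without overlap was folt-1, which passed the filter through mutant libraries labelled RNAi. On vector, Δmetr-1 against wild type had 2 and 0, beside 17.4% and 13.8%, and metr-1(ww52);Δnhr-10 had 2 and 1, beside 26.8% and 25%. Between the metr-1 strains the counts were 2 and 1 on vector, beside 12.8% and 15.2%, and 2 and 0 with the RNAi label, beside 26.9% and 10.6%.

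In the first experiment, untreated Δnhr-114 against wild type had 1 of the 7 genes higher without overlap, beside 17.8% of 10948 genes. This was folt-1, which passed the filter through Δnhr-114 libraries. The 2 genes lower without overlap were mel-32 and atic-1, beside 8.96% of all genes. With methionine the counts were 0 and 2, the same genes lower, beside 12% and 9.9%. Methionine in wild type gave 0 and 2 (mel-32 and dhfr-1), beside 9.21% and 10.4%, and in Δnhr-114 1 and 1 (gcst-1 higher and folt-1 lower), beside 11.5% and 18.7%. In these comparisons limma and edgeR called 0% of genes, and DESeq2 called up to 52 higher and 33 lower, with none of the 7 among them.

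Where limma called no gene, the share with an unadjusted p under 0.05 was 1.15% for methionine in wild type, 4.53% for untreated Δnhr-114 against wild type, 4.36% for methionine in Δnhr-114, 0.859% for the strains with methionine and 2.14% for their interaction. Of the 7 genes only mel-32, in untreated Δnhr-114, was among them. In the second experiment it was 1.22% for RNAi in wild type (0 of the 7), 5.1% between the metr-1 strains on vector (0 of the 7) and 3.13% between them with the RNAi label (tyms-1).

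**Figure D5:**
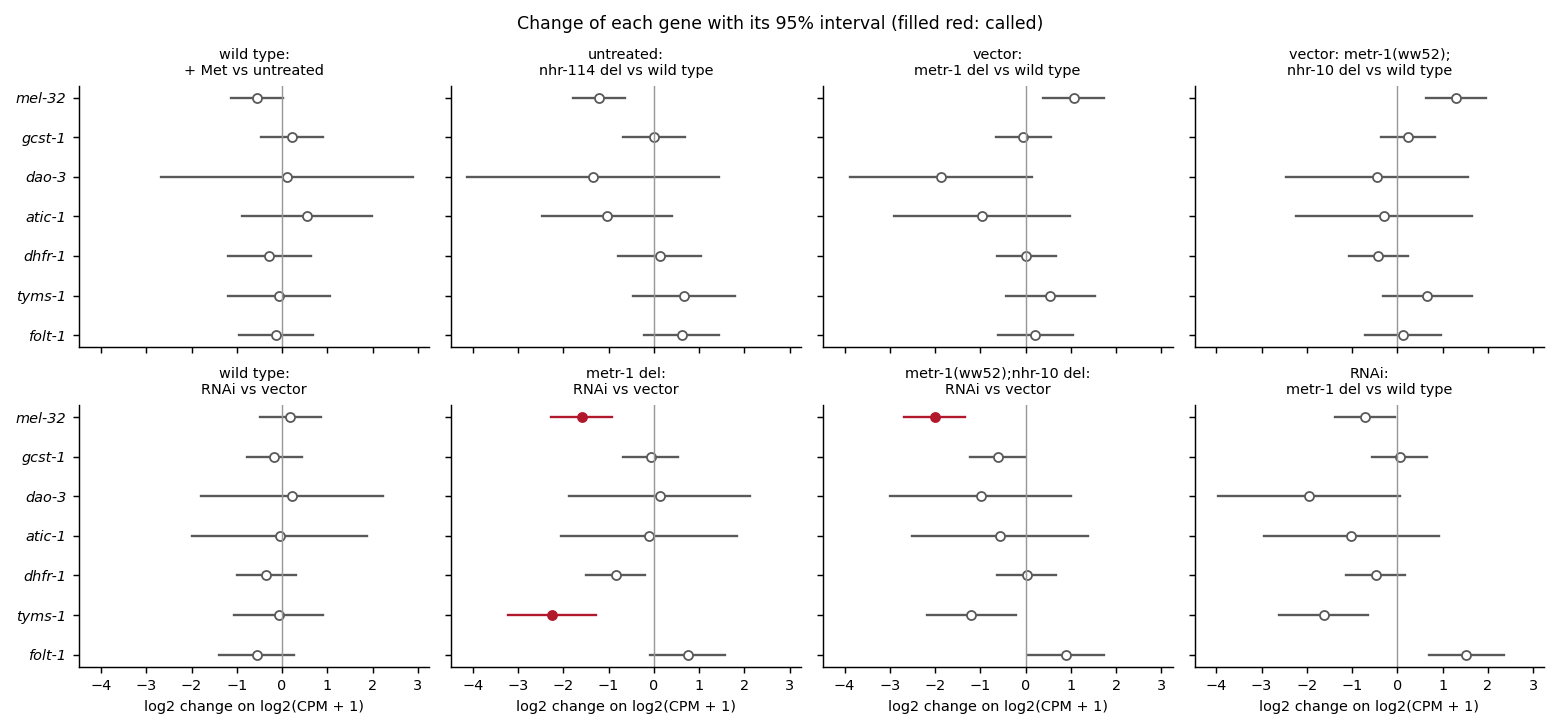
Log2 change of each of the 7 genes on the log2(CPM + 1) scale in 8 comparisons, with 95% intervals; filled red points were called. Red appears for mel-32 in both metr-1 mutants and for tyms-1 in Δmetr-1, all from vector to the RNAi label, while the intervals of dao-3 and atic-1 span several log2 units.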

How the data were processed

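The 7 genes and the gene lists were chosen with earlier results of these data known. Animals were synchronized by an 18 h L1 arrest after maintenance with 0.64 nM vitamin B12. The authors prepared 3′-end libraries with CEL-seq2, trimmed reads (Trimmomatic 0.32), aligned them with STAR, counted them with ESAT on the WormBase WS271 genes without pseudogenes, and tested counts with DESeq2. The methods call them read counts, and they are called reads here; whether reads with the same molecular identifier were collapsed is not given in the sources used here. The deposited tables are named TPM, but their values are CPM: each library sums to 1000000, and 100% of values were whole multiples of 1 step (tolerance 0.01), so whole reads were recovered. Samples took their groups from their titles, and 2 labelled biological replicates made each group, so p-values measure the spread between those libraries. The 16 comparisons (3 interactions) were fitted per experiment in limma 3.58.1 (R 4.3.3), with group means, trended and robust variances, on log2(CPM + 1) of genes with at least 5 CPM in 2 libraries (10948 and 11543 genes), leaving 4 and 6 residual degrees of freedom. Tests were two-sided and adjusted over all genes tested, and log2 changes on this scale understate those of low genes. Every member is described; genes of other lists were named when called, and the 3 genes most like each member were named by Pearson correlation of log2 values centred by experiment. Alternatives were pseudocounts 0.5 and 5, no filter, median-of-ratios scaling, edgeR 4.0.16 and DESeq2 1.42.0 on recovered reads, the replicate number as a block, only the libraries compared, each library left out, and, chosen after seeing the data, all RNAi replicate 1 libraries left out. The limma code was tested on simulated data. Gene positions come from Ensembl 115, which may differ from WS271.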

Additional observations from a re-analysis of the deposited data

Results flagged for a closer look

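The response of folt-1 to nhr-114 RNAi went opposite ways in wild type and in the metr-1 mutants: both wild type libraries labelled RNAi lay below both on vector, and both RNAi libraries of each mutant lay above their vector libraries. The log2 response in Δmetr-1 minus that in wild type was 1.31 (SE 0.53, limma adjusted p 0.151), and for metr-1(ww52);Δnhr-10 it was 1.45 (SE 0.53, adjusted p 0.161). The interaction test did not pass the threshold in either, and folt-1 rested on as few as 12 reads in this experiment. It also passed the filter on low values through the mutant libraries labelled RNAi, so an opposite response is not established.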

How the results depend on the processing

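Which of the 7 genes were called depended on the fit in 5 of 16 comparisons. No change of direction was met among 48 member changes picked for an unadjusted limma p under 0.1 or no overlap. Leaving out a library cannot reverse a change between groups without overlap, so this says little about stability. Other member changes did reverse. For example, atic-1 did in 6 of 21 fits of Δmetr-1, RNAi against vector, and gcst-1 in 5 of 16 fits of untreated Δnhr-114 against wild type. In Δmetr-1 on RNAi against vector the 2 genes called became 1 without a filter, under median-of-ratios scaling and in edgeR, and 0 with only the libraries compared or without the RNAi replicate 1 libraries; leaving out single libraries gave 0 to 2. In metr-1(ww52);Δnhr-10 the 1 gene called became 0 under the last 2 of these, and 0 to 1 when single libraries were left out. On RNAi, Δmetr-1 against wild type went from 0 genes to 1 under median-of-ratios scaling, in edgeR (folt-1 in both) and with the replicate block (tyms-1), to 2 in DESeq2 (folt-1 and tyms-1), and to 0 to 1 with single libraries left out; metr-1(ww52);Δnhr-10 against wild type went from 0 to 1 in DESeq2 (folt-1). Against wild type on RNAi, limma called 15.9% of all genes for Δmetr-1 and 12.3% for metr-1(ww52);Δnhr-10 in the main fit. The shares in the other fits are not given here, so those counts of members have no background beside them. The interaction of metr-1(ww52);Δnhr-10 went from 0 to 1 in DESeq2 (mel-32, -2.12, adjusted p 0.00438). A correlation of replicate differences over 0.1 was taken as deviating together. Same-numbered replicates did so in 2 of 6 and 6 of 15 pairs of groups (correlations of -0.66 to 0.31 and -0.47 to 0.68). The numbers were therefore not used as a pairing in the main fit. In every RNAi group nhr-114 was high in replicate 1, and whether libraries of the same number shared a batch was not tested. The replicate block changed no other call of the members.

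Over all genes, Δmetr-1 labelled RNAi against vector had 176 genes called higher and 1272 lower in limma, 80 and 899 without a filter, 327 and 1070 under median-of-ratios scaling, 434 and 1120 in edgeR, 744 and 1680 in DESeq2, and 0 and 0 with only the libraries compared. For metr-1(ww52);Δnhr-10 these counts were 160 and 390, 94 and 182, 182 and 321, 145 and 252, 597 and 693, and 18 and 6. Median-of-ratios scaling moved the median change of all genes in Δmetr-1 from -0.11 to 0.08. With 3 reads at up to 2.16 CPM, depth limits folt-1 most.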
